A study of Mus musculus with 4 samples.

Results

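The nuclear genes of oxidative phosphorylation encode most of the subunits of the 5 enzyme complexes of the inner mitochondrial membrane. They were taken here as the rows whose symbols start like the subunits of complex I (Nduf), complex II (Sdh), complex III (Uqcr), complex IV (Cox4 to Cox8) and complex V (Atp5). Of 94 rows with such a symbol, 6 pseudogene rows were left out and 4 had a mean below 10 normalized reads over the libraries, which left 84 of the 52459 rows of the table. Complex I had 37 of them, complex II 8, complex III 8, complex IV 14 and complex V 17. The names also take in the complex II assembly factors Sdhaf1, Sdhaf2, Sdhaf3 and Sdhaf4, and Atp5s and Atp5sl, which are not structural subunits. Cyc1, a subunit of complex III, has another name and was followed in a separate list. Ndufa4 and its relative Ndufa4l2 stand under complex I by name, although the Ndufa4 protein was later assigned to complex IV. The rule uses names and a mean over all libraries, so it does not use the difference between the genotypes. Just inside the mean of 10 were Ndufs3 and Cox7a1, with means of 22.3 each, and just outside it was Cox7b2, with a mean of 3.69.

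The study profiled the first pharyngeal arch (PA1), the embryonic outgrowth that forms the jaws, in a mouse model of syngnathia, a fusion of the jaws. Libraries of polyA-selected RNA came from wild-type embryos (2 libraries) and Wnt1-Cre;pMes-Bmp4 embryos (2 libraries) at E9.5 to E9.75, a stage of 25 to 27 somites, with no treatment in either group. In the second genotype, Cre recombinase under Wnt1 control switches on the pMes-Bmp4 transgene in neural crest, which supplies most of the arch mesenchyme, so that these cells make extra Bmp4. These libraries are called transgenic from here on. Neither Wnt1-Cre nor pMes-Bmp4 was profiled by itself here, so the transgenes cannot be told apart from the extra Bmp4. The labels do not say that replicates came from separate embryos or litters, so the p-values measure only the spread between these libraries, which may be technical.

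Complex I takes electrons from NADH and complex II takes them from succinate, a step it shares with the tricarboxylic acid (TCA) cycle. Ubiquinone and cytochrome c carry the electrons through complex III to complex IV, which passes them to oxygen. Complexes I, III and IV pump protons across the inner membrane, and complex V lets them flow back through its membrane rotor while its catalytic head makes ATP. Complex II is built from nuclear-encoded subunits alone, while the other complexes also hold subunits encoded by the mitochondrial genome. Complexes I, III, IV and V pair a core that does the chemistry with accessory subunits that support it. Embryos at this stage are also known for strong use of glycolysis.

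The libraries held 47849092 and 33763574 reads in wild-type and 31404494 and 29607541 in transgenic libraries. Bmp4 stood at 682 and 437 normalized reads in wild-type and at 2656 and 1745 in transgenic libraries, which matches the labels. All 12 markers of arch mesenchyme passed the mean of 10, and 2 rose and 3 fell. Their log2 differences, transgenic minus wild-type, were positive in 3 and negative in 9, with a median of −0.38. The 12 markers summed to 27630 and 37602 in wild-type against 37073 and 27234 in transgenic libraries. Among markers of other cells, the summed level of the 10 erythroid genes was 807974 and 736595 in wild-type and 418959 and 449647 in transgenic libraries, and 4 of them fell. The 10 epithelial markers summed to 27250 and 20628 in wild-type and to 36710 and 34498 in transgenic libraries. Of the 9 tested, 2 rose, and 8 differences were positive and 1 negative, with a median of 0.56. The 9 heart muscle markers tested summed to between 583 and 629 in wild-type and between 573 and 673 in transgenic libraries, with Nppa at 0 in each. None of the tested markers of heart muscle, endothelium (8) or muscle progenitors (6) passed, and 1 of 8 neuron markers rose. The neuron differences were positive in 2 and negative in 6, with a median of −0.29. The neuron list summed to 1738 and 1216 in wild-type and to 2533 and 2202 in transgenic libraries. The part of these cell types in the results below was not tested, and in bulk tissue fewer cells of a type and less RNA per cell cannot be told apart.

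In all, 6 nuclear genes of oxidative phosphorylation rose in the transgenic arch, and none fell. Those described here are the core complex I subunit Ndufs1, the complex II subunits Sdha and Sdhd, and Atp5b and Atp5a1, the beta and alpha subunits of the catalytic head of ATP synthase. The increases of these 5 lay between 1.42-fold and 1.79-fold. A gene was called changed when its adjusted p was under 0.05 in limma fitted over 16746 genes, with Benjamini-Hochberg adjustment over all of them. By this rule 6 of 84 members were higher, or 7.14%, where 2.97% of all genes tested were higher. None of the members was lower, where 5.28% of all genes were lower. At an unadjusted p under 0.05, 12 members were higher and 6 lower. Of the 16746 genes tested, 4816 were under this limit in either direction. edgeR on the recovered reads called 4 members higher and 0 lower, beside 409 of 16746 genes higher and 915 lower. DESeq2 called 10 members higher and 2 lower, beside 1234 of 16746 genes higher and 1573 lower.

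The 84 genes did not move as a block. Their median log2 difference, transgenic minus wild-type, was 0.02, and so was the median of all genes tested. Of the members, 43 had a positive and 41 a negative difference. In 27 members (32.1%) both transgenic libraries lay above both wild-type libraries, and in 19 (22.6%) both lay below. Over all genes these shares were 30.0% and 29.7%, so the share above is near the background and the share below is smaller than it. With 2 libraries a group, an exact permutation test of 1 value cannot go below p = 0.333, and calls come only from the fit that shares the spread over genes.

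**Figure D1:**
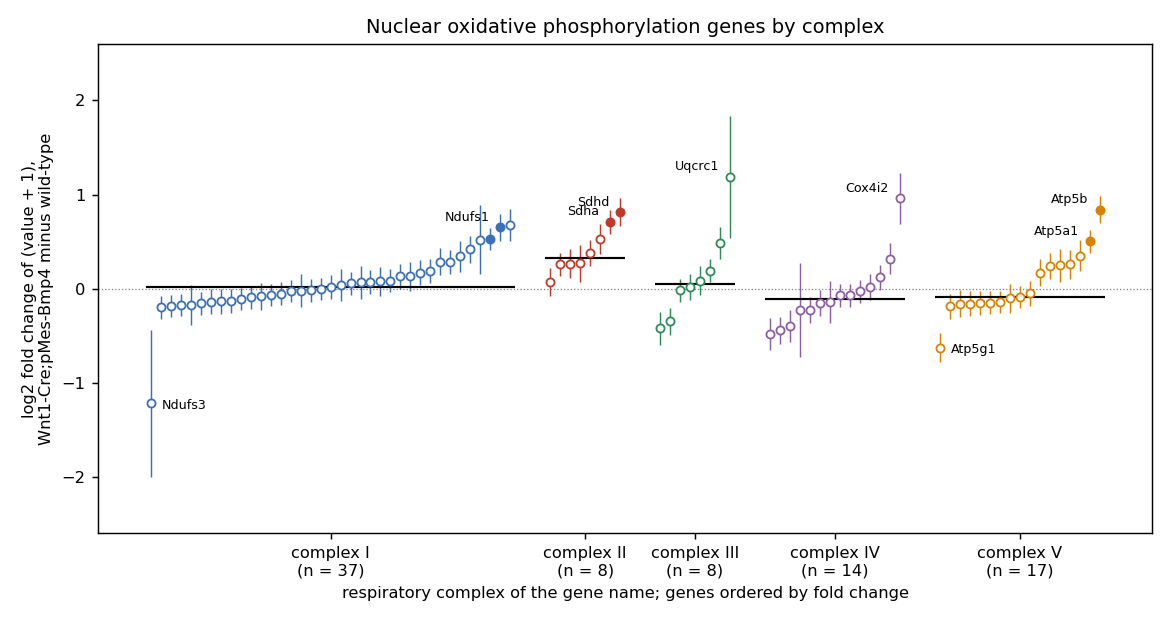
Log2 fold change (normalized reads plus 1, Wnt1-Cre;pMes-Bmp4 minus wild-type; vertical axis) of each of the 84 genes, grouped by complex and ordered by fold change; each point is 1 gene with its limma standard error, filled points passed the adjusted p of 0.05 and horizontal bars mark medians. Among the 6 filled points are Ndufs1, Sdha, Sdhd, Atp5a1 and Atp5b, and complex II has the highest median (0.32).

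The 6 calls were sensitive to the libraries, to transcript length and to the variance model. Without the trend in the prior variance, limma called no member and no gene of the table. At an unadjusted p under 0.05 that fit had 8 members higher and 1 lower, and 3925 of 16746 genes in either direction. With wild-type replicate 1 left out, the limma fit called 0 members and 0% of genes higher or lower, and 11 members and 3185 genes reached an unadjusted p under 0.05. Such a fit assumes that the lone library varies like the other group. With wild-type replicate 2 left out it called 0 members and 0.00597% of genes higher and 0% lower. With transgenic replicate 1 left out it called 15 members higher and 9 lower, with 16.0% and 16.2% of genes, and with transgenic replicate 2 left out 9 higher and 1 lower, with 7.17% and 11.4% of genes.

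Complex II was the complex in which the members leaned furthest to one side. All 8 had a positive difference, where 51.3% of all genes tested did, and their median was 0.32. In 7 of them both transgenic libraries lay above both wild-type libraries, as in 30.0% of all genes. After the length correction described below this held in 5 of the 8, beside 4515 of 16225 genes, and the median was 0.23. The complex II median was 0.16 with length and GC content corrected together, and 0.21 with the length of the principal transcript. Sdha, the flavoprotein that oxidises succinate, had 4270 and 3974 normalized reads in wild-type and 6355 and 7127 in transgenic libraries. Sdhd, a membrane anchor of the complex, had 9471 and 7562 reads in wild-type and 14082 and 15663 in transgenic libraries. Both transgenic libraries were high and both wild-type libraries low for each gene, with no overlap. Sdha rose 1.64-fold, from 4122 ± 209 to 6741 ± 546 (SD, n = 2), a log2 difference of 0.71 ± 0.13 (SE, limma adjusted p = 0.0279). Sdhd rose 1.75-fold, from 8517 ± 1350 to 14872 ± 1117 (SD, n = 2), a log2 difference of 0.81 ± 0.15 (SE, limma adjusted p = 0.0289).

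The stretches of promoter printed next belong to those members among the genes described most fully here that had a RefSeq promoter window in the set used. That set held no window for Ndufs1 or Atp5a1. They show which letters lie before genes that rose and before a gene with a negative difference, Atp5g1. Each is 120 bases of GRCm38.p6 upstream of the RefSeq start and of the GENCODE gene edge, written 5′ to 3′ on the gene's strand. Capitals mark matches to the palindromic consensus motif of NRF1 and to CCGGAAG (ETS factors such as GABP), ATGGCGG (the core of the YY1 motif) and GGGCGG (a GC box), each searched on both strands; no motif contains another, though matches may overlap.

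Sdha, chr13:74350281-74350400, minus strand: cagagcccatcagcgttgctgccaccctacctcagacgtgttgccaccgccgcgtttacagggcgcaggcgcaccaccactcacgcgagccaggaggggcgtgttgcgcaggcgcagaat
Sdhd, chr9:50603850-50603969, minus strand: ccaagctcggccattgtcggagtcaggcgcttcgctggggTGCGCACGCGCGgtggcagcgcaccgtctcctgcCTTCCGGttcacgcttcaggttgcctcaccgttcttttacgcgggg
Atp5b, chr10:128083153-128083272, plus strand: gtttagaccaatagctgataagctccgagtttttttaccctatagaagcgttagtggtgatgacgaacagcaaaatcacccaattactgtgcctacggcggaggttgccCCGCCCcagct
Atp5g1, chr11:96075671-96075790, minus strand: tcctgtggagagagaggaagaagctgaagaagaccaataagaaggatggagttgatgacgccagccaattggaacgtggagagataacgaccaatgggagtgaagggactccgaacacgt

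The stretch before Sdhd holds 1 NRF1 and 1 ETS match, that before Atp5b holds 1 GC box, and those before Sdha and Atp5g1 hold none of these motifs. RefSeq windows from 250 bases before to 50 after the start were matched to 68 of the 84 members. Of these, 8 (11.8%) held the NRF1 motif, against 3.09% of the tested genes with a window and 1.41% of all genes with one. The ETS motif was in 19 (27.9%), against 19.1% and 9.93%, and the YY1 motif in 11 (16.2%), against 8.96% and 4.69%. A GC box was in 29 (42.6%), against 68.3% and 38.2%. NRF1 and GABP are known as regulators of many respiratory chain genes. A match is a description of letters and not a site that was shown to be bound.

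The other complex II subunits had smaller differences. Sdhb, the iron-sulfur subunit, had 13546 and 11069 reads in wild-type and 15468 and 16447 in transgenic libraries, a log2 difference of 0.38 ± 0.14 that did not pass (limma adjusted p = 0.129). Sdhc, the other membrane anchor, had 3191 and 3045 against 3766 and 3698, a difference of 0.26 (limma adjusted p = 0.21). The groups did not overlap in either gene. Per kilobase of principal transcript, Sdhd stood at 0.649 and 0.634 of the level of Sdhb in wild-type and at 0.845 and 0.883 of it in transgenic libraries. Among the assembly factors, Sdhaf4, which helps to mature Sdha, had 2081 and 1781 against 2487 and 3097 (log2 difference 0.53, limma adjusted p = 0.0842). Sdhaf3 had 1131 and 1138 against 1107 and 1286, and its groups overlapped. The 4 subunits had a median of 0.54 and the 4 assembly factors a median of 0.27.

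In complex I, 2 genes rose. Ndufs1, a core subunit that carries iron-sulfur clusters, had 2632 and 2371 normalized reads in wild-type and 3617 and 4267 in transgenic libraries. Both transgenic libraries lay well above both wild-type ones. Ndufs1 rose 1.58-fold, from 2502 ± 185 to 3942 ± 460 (SD, n = 2; log2 difference 0.65 ± 0.14, limma adjusted p = 0.0397). It lies on chromosome 1 at 63143596 to 63176833 (GRCm38, GENCODE M21).

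Other complex I genes did not pass. Ndufa9, an accessory subunit at the junction of the arms, had the largest positive difference of the complex, with 7751 and 6499 reads in wild-type and 9929 and 12960 in transgenic libraries (log2 difference 0.68 ± 0.17, limma adjusted p = 0.0519). Ndufv1, which binds NADH, had 4214 and 3518 against 5463 and 4838 (0.42 ± 0.14, limma adjusted p = 0.111). The groups of both genes were apart. Ndufs8 had a log2 difference of 0.17, Ndufv2 of 0.13 and Ndufs7 of −0.13, so the core subunits had differences of both signs. The 7 core subunits had a median of 0.17, and the 30 other complex I members had a median of −0.01 with none called.

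Ndufs3, a core subunit, had the most negative difference of the complex and very few reads. It had 31.9 and 25.7 normalized reads in wild-type and 26.7 and 4.85 in transgenic libraries, and the groups overlapped (log2 difference −1.22 ± 0.78, limma adjusted p = 0.342). Its level was 27.5 reads per kilobase in wild-type, while the other complex I core subunits stood between 940 and 9082. Of its 75-base stretches, 27.1% also occur in the pseudogene Gm12251, and its exons overlap Kbtbd4 on the opposite strand over 4.04% of their bases. Whether the counting lost reads of this gene was not tested, and its value is uncertain. Ndufa4 had 23711 and 19203 reads against 25748 and 26253 (0.29, limma adjusted p = 0.235). Ndufa4l2, a relative known to respond to low oxygen, had 84.6 and 48.3 against 101 and 83.7 (0.52, limma adjusted p = 0.39), with overlapping groups.

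**Figure D2:**
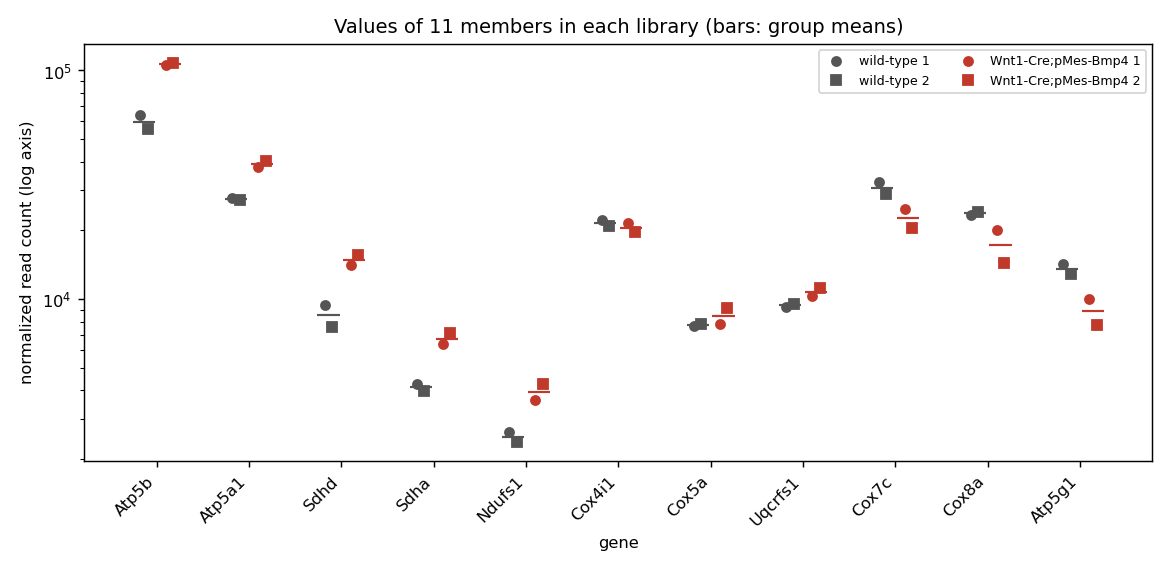
Normalized read count (log axis) of 11 members in each of the 4 libraries; circles and squares are replicates 1 and 2, grey wild-type and red Wnt1-Cre;pMes-Bmp4, and bars are group means. The 5 called genes shown stand on the left with both red points above both grey ones, and Cox7c, Cox8a and Atp5g1 on the right have both red points below.

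No gene of complex III passed, and its median was 0.05. The smallest p-values belonged to Uqcrc2 and Uqcrq. Uqcrc2, a core protein of the matrix side, had 7866 and 6554 reads in wild-type and 8816 and 11497 in transgenic libraries (log2 difference 0.49 ± 0.17, limma adjusted p = 0.111). Pdzd9 on the opposite strand overlaps 19.7% of its exonic bases. Uqcrq, a small subunit next to cytochrome b, had 14520 and 13372 in wild-type and 12264 and 8824 in transgenic libraries (−0.42 ± 0.17, limma adjusted p = 0.161). The Rieske iron-sulfur protein Uqcrfs1 had 9251 and 9561 against 10313 and 11185, with groups apart (0.19 ± 0.12, limma adjusted p = 0.336; −0.012 after the length correction). Uqcrc1, the partner of Uqcrc2, had the largest positive difference, 1.19 ± 0.65 (limma adjusted p = 0.274), and it came from 1 library. Its libraries held 353 and 280 reads in wild-type and 315 and 1631 in transgenic libraries. Per kilobase of principal transcript it stood at 191 in wild-type, against 3803 for Uqcrc2. Whether the counting lost reads of Uqcrc1 was not tested, and its value is uncertain. Over the alternatives tried the difference of Uqcrc1 ranged from 0.002 to 2.37.

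Complex IV leaned the other way, with 4 positive and 10 negative differences and a median of −0.11, and none of its genes passed. Cox7c, a small subunit, had 32450 and 28838 reads in wild-type and 24690 and 20527 in transgenic libraries (log2 difference −0.44, limma adjusted p = 0.0981). Its level is uncertain, since 50.4% of its 75-base stretches recur in other genes such as Gm10012. Cox8a, also small, had 23421 and 24052 against 19997 and 14472, the most negative difference of the complex (−0.48 ± 0.17, limma adjusted p = 0.117). In both genes the wild-type libraries were the higher ones with no overlap. Cox4i1, the regulatory subunit of most tissues, had 22235 and 20984 against 21452 and 19667 (−0.07 ± 0.12, limma adjusted p = 0.731). Cox5a, its neighbour in the enzyme, had 7682 and 7829 against 7772 and 9131 (0.12, limma adjusted p = 0.581; −0.092 after the length correction). The groups of Cox4i1 and of Cox5a overlapped.

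Most tissue isoforms of complex IV were scarce. Cox4i2, the isoform known from lung and low oxygen, had 102 and 88.5 reads in wild-type and 214 and 161 in transgenic libraries, which is 1.97 times the mean of wild-type and the largest positive difference of the complex (0.96 ± 0.27, limma adjusted p = 0.0706). Per kilobase it made up 0.478% and 0.438% of the Cox4 transcripts in wild-type and 1.03% and 0.848% in transgenic libraries, so Cox4i1 supplied nearly all of them in each library. The striated muscle isoform Cox7a1 had 23.0 and 24.7 against 16.0 and 25.5 reads, while Cox7a2, its counterpart in other tissues, had 16354 and 15331 against 14627 and 15522. The muscle isoform Cox6a2 had 0 reads in all libraries and Cox8b had reads in 1 library alone (4.85 normalized), where Cox6a1 had a log2 difference of −0.22 (limma adjusted p = 0.335). Cox6b2, known from testis, had 539 and 497 against 565 and 389 reads, and Cox6b1 had 27514 and 23032 against 25681 and 25291. Of 4 testis markers, Pgk2 and Tnp1 were at 0 in all libraries, and the list summed to 17.8 and 7.2 normalized reads in wild-type and to 20.3 and 9.7 in transgenic libraries, nearly all of it from Ldhc. Cox7b2 had 3.71 and 5.14 against 1.07 and 4.85, and Cox8c 0 and 2.06 against 2.13 and 0, while Cox7b, the usual isoform, had a log2 difference of −0.03. Cox7a2l, which takes part in supercomplexes, had 3534 and 3126 against 3598 and 4773 (0.32, limma adjusted p = 0.255).

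In complex V, 2 of the 5 subunits of the catalytic head rose. Atp5b, which holds the catalytic sites, had 64074 and 55486 reads in wild-type and 105631 and 107841 in transgenic libraries, the largest positive difference of complex V. Atp5a1 had 27632 and 27258 in wild-type and 37742 and 40090 in transgenic libraries. In both genes each transgenic library was above each wild-type library by far more than libraries of one genotype differed. Atp5b rose 1.79-fold, from 59780 ± 6073 to 106736 ± 1563 (SD, n = 2; log2 difference 0.84 ± 0.14, limma adjusted p = 0.026). Atp5a1 rose 1.42-fold, from 27445 ± 265 to 38916 ± 1660 (SD, n = 2; log2 difference 0.50 ± 0.12, limma adjusted p = 0.0499), just under the threshold. The 2 proteins sit in equal number in the head, but per kilobase of transcript Atp5b stood at 2.99 and 2.63 times Atp5a1 in wild-type and at 3.61 and 3.47 times in transgenic libraries. Of the other head subunits, Atp5c1 had a log2 difference of 0.24 (limma adjusted p = 0.287), Atp5d of −0.10 and Atp5e of −0.16, so the head subunits did not lean one way.

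The 10 membrane and stalk subunits had a median of −0.14, with 8 negative and none called. Atp5f1, a stalk subunit, was one of the positive ones, with 26666 and 23254 reads in wild-type and 27994 and 36089 in transgenic libraries (log2 difference 0.35, limma adjusted p = 0.201). Subunit c, which forms the rotor ring, is made from 3 genes that encode the same mature protein. Atp5g1 had 14245 and 12946 reads in wild-type and 10034 and 7700 in transgenic libraries, 1.53 times lower on average and the most negative difference of the complex. The groups were apart, but the difference did not pass (log2 difference −0.63 ± 0.16, limma adjusted p = 0.0535). Atp5g3 had 44093 and 44570 against 37860 and 42071 (−0.15, limma adjusted p = 0.471). Atp5g2 had a log2 difference of −0.19 (limma adjusted p = 0.395) and is uncertain, since 86.9% of its 75-base stretches recur in other genes such as Gm10175. The 3 genes summed to 67970 and 66058 in wild-type and to 56397 and 57249 in transgenic libraries, and Atp5g1 gave 20.96% and 19.6% of that sum in wild-type and 17.8% and 13.5% in transgenic libraries. The groups did not overlap for the sum or for the share.

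All 6 genes called belong to the 20 members classed as core or catalytic (30%), whose median was 0.22. None belong to the 54 accessory subunits, whose median was −0.03. Over all genes tested, 2.97% were called higher. Uqcrc2, described above as a core protein, and its partner Uqcrc1 were classed as accessory, so the split depends on this choice of classes. These classes were assigned with the values known, so the counts are a description. The core genes also have longer transcripts, with a median of 1679 bases against 913 for the accessory ones.

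Transcript length moved with the result. The members' median longest transcript was 1046 bases, against 3056 over all genes. In the 17 members under 700 bases the median log2 difference was −0.08 and in the 22 of 700 to under 1000 it was −0.06. It was 0.12 in the 14 of 1000 to under 1500 bases, 0.13 in the 17 of 1500 to under 2500 and 0.26 in the 13 of 2500 or more. Over genes with a length and a mean of at least 50 in the same bins the medians were 0.05, 0.14, 0.21, 0.24 and −0.06; in the longest bin the members' median was positive and that of these genes negative. Over 83 members with a length, Spearman's rho between length and the log2 difference was 0.346, as a description of genes that share the same libraries. Within genotypes it was −0.056 for wild-type replicate 2 minus 1 and 0.282 for transgenic replicate 2 minus 1. With the length of the principal transcript, rho was 0.440 for the log2 difference, and −0.212 and 0.270 within wild-type and transgenic libraries. These lengths can lie far apart, as in Atp5l, with 6310 bases in the longest and 544 in the principal transcript.

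Each library was then corrected for length by a smooth curve fitted over all genes. After this, limma called 0 of 83 members, with 0.659% of genes higher and 0.998% lower. At an unadjusted p under 0.05, 8 members were higher and 7 lower, beside 3852 of 16225 genes in either direction. The corrected log2 differences were 0.63 for Atp5b (limma adjusted p = 0.0783), 0.61 for Sdhd (0.0643), 0.55 for Sdha (0.0799), 0.47 for Ndufs1 (0.122) and 0.32 for Atp5a1 (0.215). With length and GC content corrected together, Atp5b (limma adjusted p = 0.0387), Sdha (0.0316) and Sdhd (0.0346) passed and no member was lower, with 3.98% of genes higher and 4.58% lower. The corrected median of all members was −0.12, that of complex II 0.23 and those of complexes I, III, IV and V −0.13, −0.05, −0.22 and −0.24. By length bin, the members' corrected medians ran −0.19, −0.20, −0.07, −0.08 and 0.17 from the shortest to the longest, and Spearman's rho with length was 0.353, so the trend among members was still there after the correction. The core members had a corrected median of 0.01 and the accessory members of −0.17. How far the differences between members come from length was not tested beyond these fits.

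**Figure D3:**
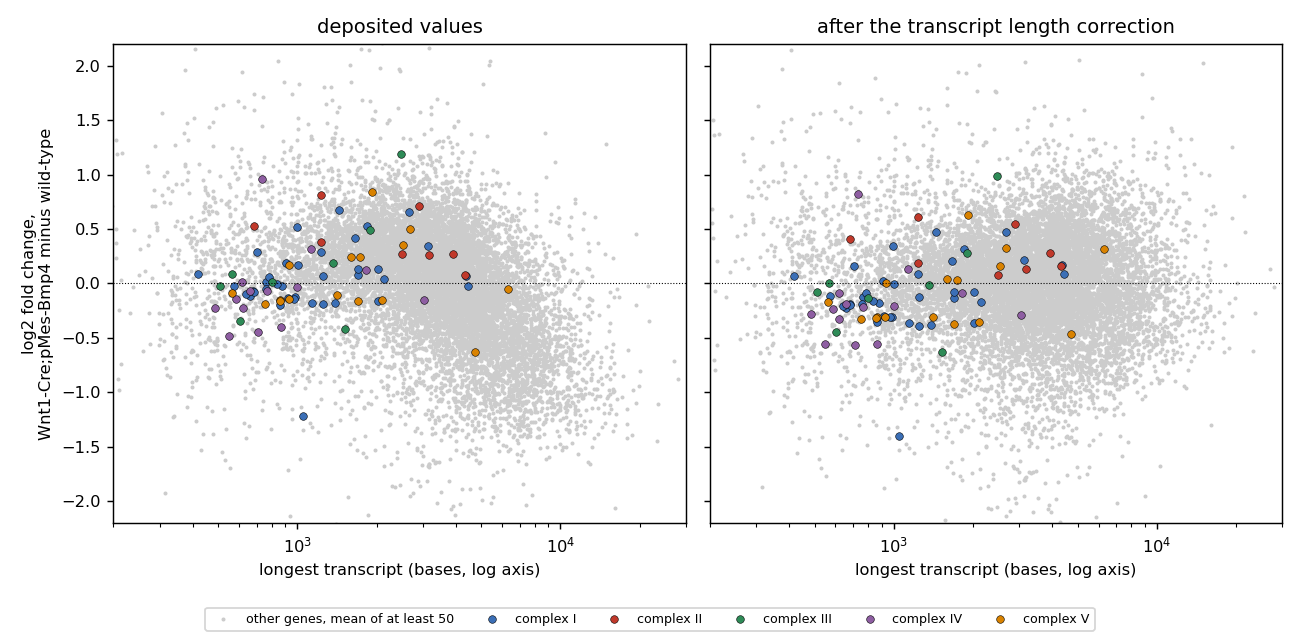
Log2 fold change (Wnt1-Cre;pMes-Bmp4 minus wild-type) against the length of the longest transcript (log axis, bases) for the members, coloured by complex, over other genes with a mean of at least 50 in grey, for the deposited values (left) and after the length correction (right); each point is 1 gene. Among members the deposited medians run from −0.08 under 700 bases to 0.26 at 2500 bases and more, and 26 other genes on the left and 24 on the right lie beyond the vertical range of 2.2.

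Per kilobase of principal transcript, the wild-type order of levels was led by small subunits of several complexes. Atp5g3 stood at 61316 normalized reads per kilobase, Cox7c at 56748, Uqcrb at 47552, Cox8a at 43157 and Cox6b1 at 40895. Uqcrb had 26705 and 24176 reads in wild-type and 23729 and 30613 in transgenic libraries, with overlapping groups and 29.1% of its 75-base stretches shared with other genes. Atp5b was twelfth in this order at 31200 per kilobase in wild-type and stood at 55708 in transgenic libraries. At the low end were Ndufs3 at 27.5, Cox7a1 at 60.7 and Ndufa4l2 at 71.1.

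As a share of all reads assigned to genes, the 84 members took 2.82% and 2.69% in wild-type and 3.02% and 2.90% in transgenic libraries. Atp5b alone took 0.181% and 0.160% in wild-type and 0.315% and 0.300% in transgenic libraries. Without Atp5b the members took 2.64% and 2.53% in wild-type, against 2.71% and 2.5996% in transgenic libraries, and the groups overlapped. Complex II took 0.103% and 0.0898% in wild-type and 0.138% and 0.142% in transgenic libraries, and complex V 0.972% and 0.933% against 1.13% and 1.10%. The complex V share includes that of Atp5b. Of the 17 complex V members 7 had a positive and 10 a negative log2 difference, with a median of −0.09. Complex I took 0.846% and 0.796% in wild-type against 0.891% and 0.856%, also without overlap. Complex IV was lower, with 0.607% and 0.586% against 0.569% and 0.501%, and the ranges of complex III overlapped. A share also moves with other abundant transcripts, and those of the cytoplasmic ribosome and of the mitochondrial genome summed lower in transgenic libraries, with values given in the next paragraphs; their part in the shares was not tested.

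**Figure D4:**
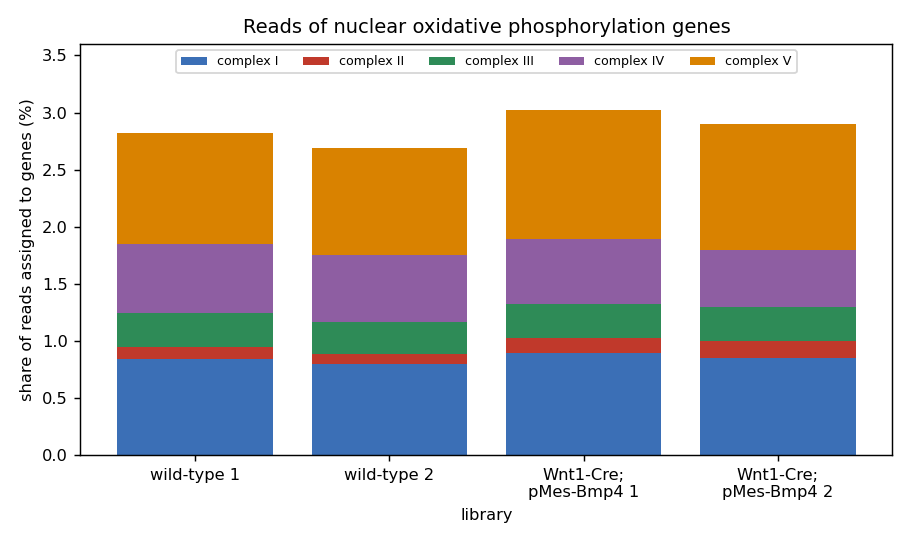
Share of the reads assigned to genes (percent, vertical axis from 0) taken by the members in each library, stacked by complex; each bar is 1 library. The bars reach 2.82% and 2.69% in wild-type against 3.02% and 2.90% in Wnt1-Cre;pMes-Bmp4, with the complex V block larger and the complex IV block smaller in the latter. The complex V block includes Atp5b, which alone took 0.181% and 0.160% in wild-type against 0.315% and 0.300%.

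The enzymes that feed the chain leaned upward with complex II. All 17 genes of the TCA cycle list had a positive difference, with a median of 0.33, and 3 rose. Over all genes tested 51.3% were positive and 2.97% rose. The list also takes in Pdha1, Pdhb and Dlat, which are pyruvate dehydrogenase genes and not TCA cycle genes. Pdhb, a subunit of pyruvate dehydrogenase, had 6330 and 5981 reads in wild-type and 9230 and 11343 in transgenic libraries (log2 difference 0.73, limma adjusted p = 0.0321). After the length correction the median of this list was 0.18 and none passed. Of 16 genes of cytochrome c and coenzyme Q synthesis, 15 were positive with a median of 0.24 and none passed; Cyc1, the cytochrome c1 of complex III, had 12204 and 12602 against 14850 and 12108.

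Of 16 complex I assembly factors, 2 rose and none fell, with a median of 0.32; after the length correction the median was 0.16 and none passed. Ndufaf7, a methyltransferase of the mitochondrial matrix, had 952 and 835 reads against 1325 and 1666 (log2 difference 0.74, limma adjusted p = 0.0455), and Foxred1 had 865 and 892 against 1285 and 1428 (0.62, limma adjusted p = 0.0457). None of the tested assembly factors of complex III (6), IV (20) or V (5) passed, and their medians were 0.15, 0.13 and 0.22. Of 16 regulators of mitochondrial biogenesis, 0 rose and 1 fell. This was Yy1, with 1551 and 2000 reads in wild-type and 888 and 708 in transgenic libraries (−1.15, limma adjusted p = 0.025), and with the length correction it did not pass (−0.80, limma adjusted p = 0.0578). Nrf1, whose motif is described above, had 1901 and 1896 against 2293 and 2136 (0.22, limma adjusted p = 0.303).

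Transcripts of the mitochondrial genome, which encode the remaining subunits, had the opposite lean to complex II. Of 13, 6 fell and none rose, with a median of −0.56. They summed to 578660 and 580535 normalized reads in wild-type and to 313103 and 441441 in transgenic libraries. mt-Nd6 had 11620 and 10509 against 4092 and 3508 (log2 difference −1.54, limma adjusted p = 0.0182), and mt-Nd5 had 31818 and 29032 against 16545 and 19352 (−0.76, limma adjusted p = 0.0274). Some short ones parted between the transgenic libraries, as mt-Co2 did with 1383 and 1371 in wild-type and 687 and 8863 in transgenic libraries. In a polyA selection the levels of these transcripts also depend on their tails. Of 76 mitochondrial ribosomal proteins tested none passed, with a median of 0.10. Of 84 cytoplasmic ribosomal proteins tested 30 fell and none rose, with a median of −0.48 and sums of 3548228 and 3378585 against 2594104 and 2662694. After the length correction 5 mitochondrial-genome transcripts and 7 cytoplasmic ribosomal proteins were past the threshold as lower.

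**Figure D5:**
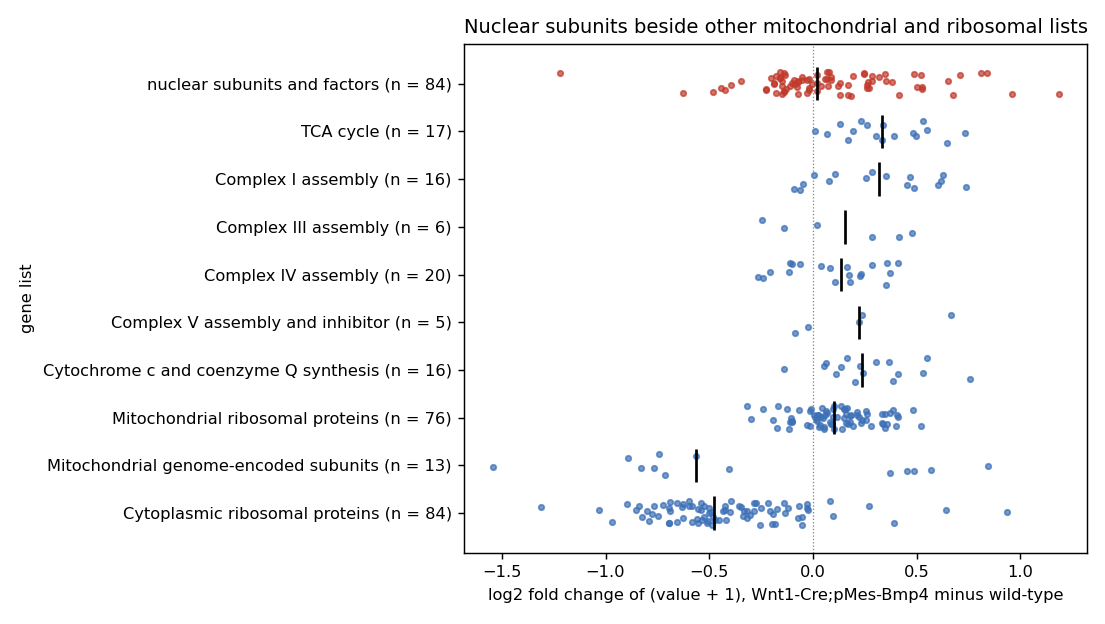
Log2 fold change (horizontal axis, Wnt1-Cre;pMes-Bmp4 minus wild-type) of the 84 members (red) and of the genes of each pathway list (blue); each point is 1 gene, its height within a row has no meaning, and bars mark medians. The TCA cycle list (17 of 17 positive) lies above 0, and the medians of the mitochondrial genome (−0.56) and of the cytoplasmic ribosomal proteins (−0.48) lie below it.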

How the data were processed

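The deposited table holds 1 value per gene and library, a signal that is a read count divided by a size factor; per the file headers the reads were counted with featureCounts. The tool fastp 0.21.0 and the build mm10 appear in the submitters' processing notes. The sources used here do not give the aligner, annotation release, strand setting or normalizing tool. When the lowest value above 0 in a column was taken as 1 read, 100% of values came out as whole reads, within 0.01. The members and lists were chosen with earlier results of these data known, and the core and accessory classes were assigned after the values were seen.

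Values were tested with limma 3.58.1 (R 4.3.3), letting the prior variance follow the mean, after adding a pseudocount of 1 and taking log2, which understates the change of low genes. Genes with a mean of at least 10 entered (16746), with Benjamini-Hochberg adjustment over them, 2 residual and 5.26 prior degrees of freedom. The length correction subtracted from each library a natural spline of 4 degrees of freedom in log length, fitted where the mean was 50 or more. Lengths and positions came from GENCODE M21, the longest transcript for the correction and the principal one for levels per kilobase; 83 members had one. Promoter windows came from RefSeq (GRCm38.p6), and the motif forms were chosen after seeing the data. Alternatives were other pseudocounts, filters, scalings, tools (edgeR 4.0.16 and DESeq2 1.42.0 on recovered reads), corrections, a replicate block and leaving out each library. Named genes were core subunits, tissue isoforms, and by complex those that passed or had the smallest p, the largest and smallest difference, and the 5 highest per kilobase; of each pathway list at most 2 that passed; values of 2 genes under this rule are not reported here. The fit was tested on simulated data. Figures were drawn with matplotlib 3.10.9.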

Additional observations from a re-analysis of the deposited data

How the results depend on the processing

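Against 6 members higher and 0 lower, and 498 genes higher and 884 lower over the whole table, limma gave these counts. With the length correction it called 0 members, and 107 genes higher and 162 lower; with length and GC content 3 members higher and 0 lower; with the length of the principal transcript, chosen after seeing the data, 0 members, and 73 and 122 genes. Without the variance trend it called no gene (8 members higher, 1 lower and 3925 genes in either direction at an unadjusted p under 0.05). With no filter it called 6 members higher and 1 lower, beside 597 and 1030 of 35837 genes. With a mean of at least 50 it called 7 members higher and 1 lower, beside 719 and 1052 of 12411 genes. With TMM scaling it called 5 members higher and 1 lower, beside 422 genes higher and 967 lower. DESeq2 called 10 members higher and 2 lower, and 1234 and 1573 genes. Leaving out 1 library gave 0 to 15 members higher and 0 to 9 lower, and 0 to 2675 genes higher and 0 to 2719 lower.

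With a replicate block it called 2 members higher (Sdhd, adjusted p = 0.0418, and Atp5b, 0.0462), and 165 and 543 genes. Deviations of same-numbered libraries had a correlation of −0.147 over genes and −0.081 over members. The labels do not say whether same-numbered libraries share a batch or litter, and this correlation cannot decide it. With the pairing crossed, chosen after seeing the data, 13 members were higher and 5 lower, and 1763 and 1952 genes.

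The members' median log2 difference of 0.02 was −0.12 with the length correction, −0.14 with length and GC content, −0.11 with the principal length, and lay between −0.052 and 0.075 when 1 library was left out. Of the named genes, 2 that were not called changed sign: Uqcrfs1 was −0.012 with the length correction, −0.078 with length and GC content and −0.016 with the principal length, and Cox5a was −0.092 with the length correction and −0.28 with length and GC content. In the other values the direction held, with 42 losing and 30 gaining the call. Of 17 alternatives, Atp5b and Sdhd passed in 12, Sdha in 11, Ndufs1 in 10 and Atp5a1 in 6. Depth limits the genes with few reads: the standard errors of Ndufs3 and Cox7a1 were 0.78 and 0.50, against 0.12 to 0.15 in the called genes named.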
